A study of Homo sapiens with 12 samples.

Results

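The regions described here are stretches of chromatin that carried a peak of H3K4me2 (histone H3 dimethylated at lysine 4) under every treatment of the study and lay far from any annotated gene start. Merging the overlapping and touching peaks of the 4 deposited lists gave 84577 regions. Of these, 43264 held a peak in all 4 lists, and 4663 of those had no start site of a protein-coding or lncRNA gene within 50 kb; these 4663 regions are called members below. The members were chosen by the peak calls themselves, so their presence in every list is a description. The lengths and strengths come from the same calls and are also given as descriptions, with no test.

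The cells were U-937, an established human line with monocytic features, which the labels call AML cells. They received DMSO (the solvent), 0.1 µM Corin, 0.1 µM of the vitamin A derivative all-trans retinoic acid (ATRA), or both drugs at 0.1 µM each, for 24 h. Each treatment had 2 H3K4me2 libraries and 1 input library, 12 libraries in all, and 1 pooled peak list, so the lists give no value per replicate. Differences below are between 4 lists, and intervals (95% Wilson) cover counting error only.

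H3K4me2 marks active and poised promoters as well as enhancers, the distal elements to which transcription factors bind and from which they act on a promoter across long stretches of DNA. LSD1, a demethylase in the CoREST complex, removes methyl groups from this residue, and Corin inhibits both LSD1 and the histone deacetylases of that complex. ATRA binds retinoic acid receptors, which pair with RXR on direct repeats in DNA, and it drives myeloid leukaemia cells towards maturation. Distal elements of myeloid cells are known for sites of PU.1, C/EBP, RUNX, AP-1 and IRF factors.

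The lists held 65172 peaks with DMSO, 66385 with ATRA, 73997 with Corin and 83969 with ATRA+Corin. Members made up 9.21% of the DMSO regions, 8.33% of the ATRA regions, 7.72% of the Corin regions and 6.28% of the ATRA+Corin regions. The depth of each library is not known from peak lists. A background level was solved from the deposited fold and −log10 p. It is the lowest level expected without enrichment in a list, divided by the list's scaling to input. Relative to DMSO it was 1.02 with ATRA, 1.10 with Corin and 1.199 with ATRA+Corin. This level can rise with the number of fragments and is no measure of the mark itself. Start sites of 7 of 8 myeloid and leukocyte markers held a peak within 1 kb in every list, the exception being MPO, and so did 2 of 8 markers of other cell types.

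The sequences of 5 members are given as examples at their DMSO summit. Each is the 300-base window around that summit from GRCh38, plus strand, 5′ to 3′. The first is shown for its density of CpG, in a region near RUNX3 (a myeloid and lymphoid transcription factor), one of the 8 strongest members by their lowest rank over the 4 lists. Capitals mark each of its 31 CG pairs. In the other 4 windows, capitals mark matches to the motifs listed further on. The KLF13 window belongs to another of the strongest members and holds an AP-1 match. The NCOA3 and FLT1 windows belong to members that were short with DMSO and several times longer with a drug, and each holds an IRF match. The POU3F4 window, with a GATA match at its first base, belongs to the member farthest from any start site. These 5 windows are not typical of all members. The RUNX3 and KLF13 windows hold 73 and 62% GC, above the member median of 48.3%. Windows of some other named members, such as the RHOU and IGF1R ones, hold no motif match.
RUNX3 member, chr1:24848606-24848905: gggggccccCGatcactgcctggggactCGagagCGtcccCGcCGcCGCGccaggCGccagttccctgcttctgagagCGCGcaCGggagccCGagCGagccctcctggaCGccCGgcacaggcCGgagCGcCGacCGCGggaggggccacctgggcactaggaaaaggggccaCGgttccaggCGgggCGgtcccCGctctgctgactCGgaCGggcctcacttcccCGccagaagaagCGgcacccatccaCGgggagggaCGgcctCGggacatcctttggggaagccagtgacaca
KLF13 member, chr15:31434678-31434977: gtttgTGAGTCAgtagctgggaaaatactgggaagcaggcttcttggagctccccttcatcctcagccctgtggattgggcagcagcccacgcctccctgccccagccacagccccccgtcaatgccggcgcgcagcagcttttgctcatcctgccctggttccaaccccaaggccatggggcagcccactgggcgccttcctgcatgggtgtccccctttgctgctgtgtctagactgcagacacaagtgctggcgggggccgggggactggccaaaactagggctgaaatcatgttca
NCOA3 member, chr20:47576671-47576970: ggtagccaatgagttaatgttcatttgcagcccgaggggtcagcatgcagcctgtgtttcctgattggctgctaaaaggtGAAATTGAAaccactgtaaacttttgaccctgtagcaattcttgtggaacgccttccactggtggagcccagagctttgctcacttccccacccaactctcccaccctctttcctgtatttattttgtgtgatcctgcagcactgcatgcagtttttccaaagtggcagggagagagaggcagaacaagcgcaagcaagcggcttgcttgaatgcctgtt
FLT1 member, chr13:28373699-28373998: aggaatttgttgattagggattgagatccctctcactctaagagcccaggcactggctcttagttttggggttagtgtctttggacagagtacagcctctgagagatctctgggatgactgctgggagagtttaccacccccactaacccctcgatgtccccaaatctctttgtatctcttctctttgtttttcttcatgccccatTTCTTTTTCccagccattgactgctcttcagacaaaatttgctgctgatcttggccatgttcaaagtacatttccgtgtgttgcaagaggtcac
POU3F4 member, chrX:82524110-82524409: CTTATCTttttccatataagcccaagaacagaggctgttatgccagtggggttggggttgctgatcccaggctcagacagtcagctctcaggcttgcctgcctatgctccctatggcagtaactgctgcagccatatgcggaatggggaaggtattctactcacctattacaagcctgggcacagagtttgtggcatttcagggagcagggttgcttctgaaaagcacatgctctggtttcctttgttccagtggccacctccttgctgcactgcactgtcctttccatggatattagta

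Regions far from start sites were less often shared by all lists than promoter regions. Of the 11668 regions with no start site within 50 kb, 39.96% (39.1 to 40.9) had a peak in all 4 lists. The share was 87.4% for regions up to 1 kb from a start site, 38.4% at 1 to 10 kb and 43.1% at 10 to 50 kb, so the far regions stood close to the other distal classes. Among the far regions, 2131 (18.3%) had a peak with ATRA+Corin alone. The 4663 members were 77.5% of the far regions of the DMSO list but 47.2% of those of the ATRA+Corin list.

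Among regions found in all lists, members had the shortest median length of the distance classes, though close to the other distal classes. They were longer in each drug list than in the DMSO list, as those classes were. The median length covered by peaks was 814 bp with DMSO (quartiles 482 and 1326.5), 994 bp with ATRA, 1109 bp with Corin and 1222 bp with ATRA+Corin (quartiles 810 and 1796.5). Regions at 10 to 50 kb covered a median of 902, 1076.5, 1184.5 and 1297 bp in the same order, and regions up to 1 kb from a start site 2114, 2231, 2512 and 2621.5 bp. Each member compared with itself in DMSO had a median length ratio of 1.15 with ATRA, 1.25 with Corin and 1.35 with ATRA+Corin. The ratios were 1.13, 1.23 and 1.34 at 10 to 50 kb, and 1.09, 1.19 and 1.26 over all regions found in 4 lists. In sum, peaks covered 4.77 Mb of the members with DMSO and 5.62, 6.09 and 6.66 Mb with ATRA, Corin and ATRA+Corin.

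**Figure D1:**
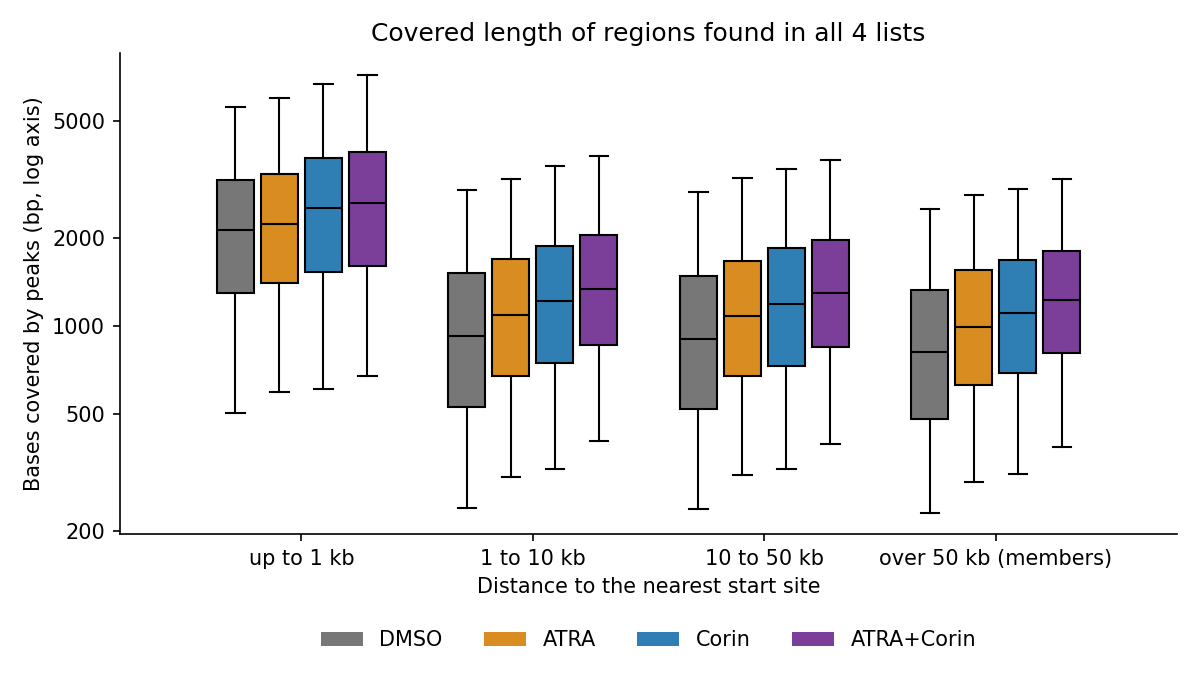
Bases covered by peaks per region (bp, log axis) in regions found in all 4 lists, by distance to the nearest start site; boxes show the median and quartiles, and whiskers the 5th and 95th percentiles, over 16404, 9121, 13076 and 4663 regions from left to right. Member medians step from 814 bp with DMSO to 1222 bp with ATRA+Corin, close to the 902 and 1297 bp at 10 to 50 kb. Regions up to 1 kb from a start site lie higher in every list.

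A member was called longer where its peaks covered at least 1.5 times the DMSO length, and shorter where DMSO covered at least 1.5 times as much. With ATRA, 1119 members were longer (24.0%, 22.8 to 25.2) against 15.6% of all 43264 regions found in 4 lists, and 242 were shorter (5.19%) against 3.52%. With Corin, 1511 were longer (32.4%, 31.1 to 33.8) against 23.8%, and 230 were shorter (4.93%) against 3.35%. With ATRA+Corin, 1898 were longer (40.7%, 39.3 to 42.1) against 31.8%, and 122 were shorter (2.62%) against 1.95%. These shares lay close to those of the neighbouring class at 10 to 50 kb, which had 22.1, 30.2 and 39.3% longer, while promoter regions had 5.02, 12.6 and 18.9% longer. Members thus stood far above promoter regions and only slightly above the other distal regions.

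**Figure D2:**
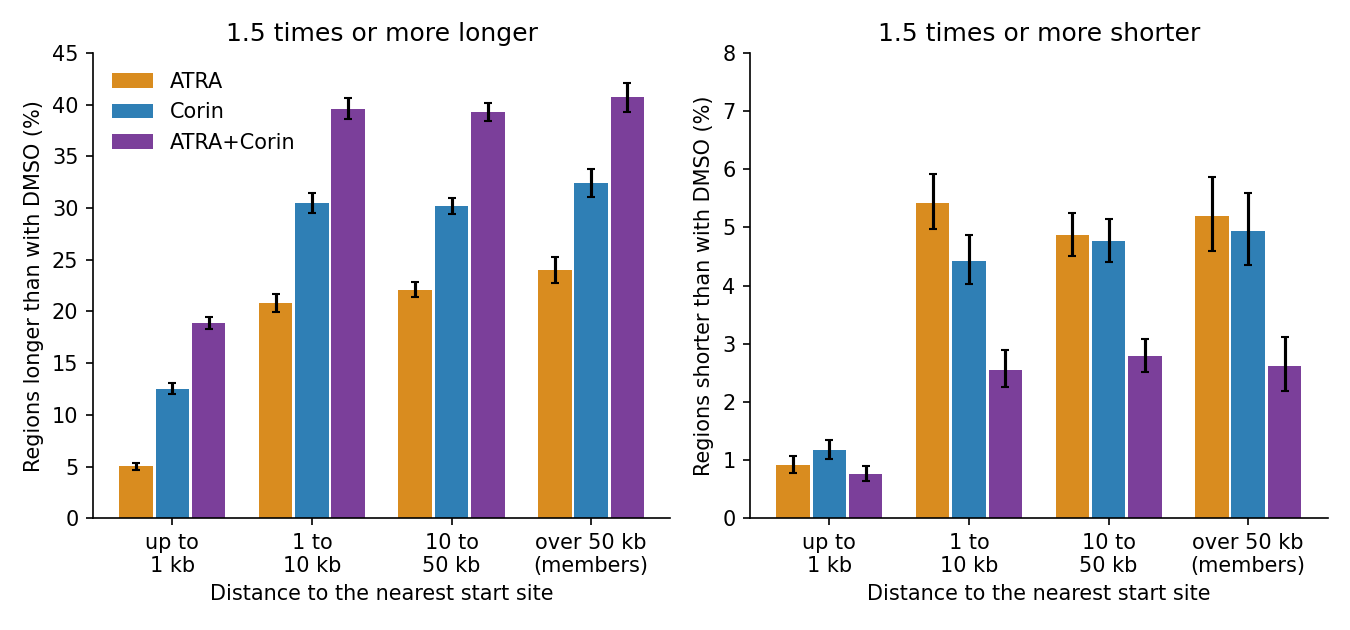
Percent of regions called longer (left) or shorter (right) than with DMSO by 1.5 times or more, by distance to the nearest start site; bars are 1 drug list each and error bars are 95% Wilson intervals (counting error). Members reach 40.7% longer with ATRA+Corin, close to the other 2 distal classes and above the 18.9% of promoter regions.

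Among the members, those of middling length had the largest ratios. Members with a geometric mean length of 500 to 1000 bp over the 4 lists (1724 members) had median ratios of 1.22, 1.33 and 1.52 with ATRA, Corin and ATRA+Corin. Those under 500 bp (657 members) had 1.13, 1.24 and 1.41, and those of 2000 bp or more (608 members) had 1.10, 1.16 and 1.23. Regions of the same mean length at 10 to 50 kb gave nearly the same ratios, 1.19, 1.30 and 1.48 for 500 to 1000 bp and 1.09, 1.17 and 1.23 for 2000 bp or more. Distance beyond 50 kb made little difference either, with ATRA+Corin ratios of 1.36 at 50 to 75 kb, 1.33 at 75 to 100 kb, 1.35 at 100 to 200 kb and 1.43 in the 293 members beyond 200 kb.

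The combination list most often held the longest version of a member. ATRA+Corin covered the most bases in 2218 members (47.6%), Corin in 1281 (27.5%), ATRA in 820 (17.6%) and DMSO in 332 (7.12%). All 3 drug lists exceeded DMSO in 2562 members (54.9%). Corin exceeded ATRA in 2755 members (59.1%, median ratio 1.06), and ATRA+Corin exceeded Corin in 2954 (63.3%, median ratio 1.08) and ATRA in 3368 (72.2%, median ratio 1.16). The solved background level, which can follow fragment number, rose in the same order as these lengths, from 1.02 to 1.10 and 1.199. Its part in the lengths was not tested. With only the strongest peaks kept, as many in every list as the shortest list holds, the median ratios were 1.15, 1.24 and 1.35. This step drops whole peaks and leaves the edges of the kept ones as called, so it cannot test the part of background or depth.

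The added length lay mostly at the outer edges of the DMSO peaks. Of the bases covered in members, 18.96% with ATRA, 24.6% with Corin and 28.3% with ATRA+Corin lay outside the DMSO edges, and 4.29, 4.45 and 4.80% lay in gaps between DMSO peaks. Between 90.3 and 93.2% of the DMSO bases stayed covered in each drug list. The share of members made of a single peak was 75.4% with DMSO, 82.6% with ATRA, 80.7% with Corin and 87.6% with ATRA+Corin, so the combination list broke them up least. The strongest summit moved by a median of 43 bp with ATRA, 53 bp with Corin and 52 bp with ATRA+Corin, and stayed within 150 bp of the DMSO summit in 74.5, 69.4 and 69.1% of members. In 35, 34 and 12 members the drug list and the DMSO list shared no base and were joined by peaks of another list or by touching. Regions at 10 to 50 kb were much alike. With ATRA, Corin and ATRA+Corin, 17.3, 23.1 and 27.3% of their bases lay outside the DMSO edges. Their summits moved by medians of 37, 49 and 45 bp. Single peaks made up 75.9% of them with DMSO and 87.3% with ATRA+Corin.

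Members held peaks of middling strength. The −log10 q, the authors' own value per peak, was taken at the strongest peak of each member, and its rank was given as a percentile within the list. The median member stood at the 39.5 percentile of the DMSO list, 44.8 of ATRA, 49.0 of Corin and 58.6 of ATRA+Corin. Regions at 10 to 50 kb stood a little higher, at 43.9, 49.4, 53.0 and 61.5, and promoter regions at 78.7 to 84.3. Far regions that lacked a peak in at least 1 list stood at 12.3 to 23.2. Members had to hold a peak in every list, and this choice itself favours stronger peaks. Lists of different length give different percentiles to the same peak, so these ranks show no change between lists. In every list, 3312 members (71.0%) had a −log10 q of 5 or more.

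In the 8 members that ranked highest in every list, each drug list differed from DMSO in length by less than 1.5 times. The region near RUNX3 (chr1:24847372-24850329, outside genes, 79947 bp from the RUNX3 start) covered 2402 bp with DMSO, 2452 with ATRA, 2868 with Corin and 2814 with ATRA+Corin. The authors' fold enrichment over input there was 44.5, 55.3, 40.4 and 33.4 in the same order. A region across the annotated 3′ end of KLF13, which codes for a zinc finger transcription factor, covered 3396, 2800, 3929 and 3942 bp (chr15:31433509-31437487). In the RUNX3 region every drug list was longer than DMSO by less than 1.2 times, and the KLF13 region was shorter with ATRA alone. Others lay in NTNG2, TOX2 and SORCS2, in a lncRNA gene on chromosome 2 whose nearest protein-coding start was FOXN2, and outside genes nearest to DEFB131A. Some of these starts depend on the annotation: with every annotated transcript counted, including those outside the basic set, the NTNG2 and chromosome 2 regions overlapped a start, while the RUNX3 region still lay 78469 bp away.

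The members described here with the largest ATRA+Corin ratios were short with DMSO. They were picked by this ratio, whose divisor is the DMSO length, so the choice itself favours short DMSO lengths. In an intron of CDK6, a kinase of the cell cycle, a member at chr7:92731430-92733044 covered 200 bp with DMSO, 337 with ATRA, 553 with Corin and 1615 with ATRA+Corin. Its −log10 q was 6.80, 16.6, 8.997 and 32.5 in the same order. These values come from the same peak calls as the lengths, so they are no separate evidence of a difference between lists. In an intron of NCOA3, a coactivator of nuclear receptors, a member at chr20:47574659-47577914 covered 452, 1322, 624 and 3256 bp. In length, the single-drug lists were far below the combination in both members. In an intron of ARHGAP35 a member at chr19:46912203-46915306 covered 377, 1973, 2038 and 2759 bp, and either drug alone was over 5 times DMSO. With every annotated transcript counted, a start lay 5720 bp from the CDK6 member, 45044 bp from the NCOA3 member and 5477 bp from the ARHGAP35 member.

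For Corin alone, members near CABLES1 and in FLT1 had the largest ratios outside chromosome 8, whose regions are not described singly. The first, at chr18:23077514-23079472 outside genes, covered 303 bp with DMSO, 1427 with ATRA, 1920 with Corin and 1945 with ATRA+Corin. The second, in an intron of FLT1, a receptor of vascular endothelial growth factor that monocytes carry, covered 215, 769, 1182 and 1341 bp at chr13:28373423-28374763. With every annotated transcript counted, a start lay 27134 bp from this FLT1 member. For ATRA, besides the ARHGAP35 region, a member outside genes at chr16:60770018-60771968 covered 272, 1421, 805 and 1951 bp; its nearest protein-coding start, CDH8, was 1264470 bp away. In these 3 members all drug lists exceeded DMSO, and the combination list was the longest.

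Few members shortened with the combination. The smallest ratio was at chr2:109516347-109517040, nearest to SEPTIN10, with 694 bp in DMSO, 322 in ATRA, 466 in Corin and 193 in ATRA+Corin. A member at chr15:98505178-98506682, nearest to IGF1R (the receptor of insulin-like growth factor), covered 1505, 927, 652 and 562 bp. A member near RHOU at chr1:228792506-228795174 covered 2095, 1313, 2372 and 766 bp, and was not shorter with Corin alone. A member in an intron of HELZ at chr17:67139995-67140675 covered 587, 510, 604 and 221 bp.

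More members lay inside genes than outside, but a smaller share than in the nearer classes. Of the 4663, 2734 (58.6%, 57.2 to 60.04) overlapped a gene body, against 63.1% at 10 to 50 kb, 68.5% at 1 to 10 kb and 93.1% up to 1 kb. Counting exons of basic transcripts, 2083 members (44.7%) lay in a protein-coding gene outside exons, 274 (5.88%) overlapped a protein-coding exon, 347 (7.44%) lay in a lncRNA gene outside exons and 30 (0.643%) overlapped a lncRNA exon. The remaining 1929 (41.4%) lay outside genes. By construction a member in a gene is far from its start, and the 1043 protein-coding genes that hosted a member had a median length of 235426 bp, against 27424 bp for all 20046. MAML2, a coactivator of Notch signalling, hosted 17 members, RUNX1 16 and TENM4, a transmembrane protein of the teneurin family, 14. Median length ratios with ATRA+Corin were 1.37 in protein-coding genes outside exons, 1.30 over protein-coding exons and 1.34 outside genes.

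The nearest start site of any kind lay a median of 78335 bp away, with a range from 50009 to 983103 bp. In 2332 members (50.0%) it belonged to a lncRNA gene. It was over 100 kb away for 1470 members (31.5%), over 200 kb for 293 and over 500 kb for 24. The nearest protein-coding start lay a median of 112441 bp away, and over 100 kb for 2610 members (56.0%). The farthest member, on chromosome X at 82523853-82525187, was nearest to POU3F4, a POU-domain transcription factor, and covered 1223 bp with DMSO, 1262 with ATRA, 1127 with Corin and 852 with ATRA+Corin. The next 2 lay inside the receptor gene ERBB4, 946881 and 926224 bp from its start in the basic set. With every annotated transcript counted, a start lay 73705 and 53048 bp from them. The first of these 2 covered 391, 1967, 1083 and 1870 bp. At the limit itself, the members nearest to it lay 50009 bp from KCNMA1, 50033 bp from a lncRNA start and 50041 bp from PPIH, and covered 210, 613 and 1224 bp with DMSO. With every annotated transcript counted, a start lay 49702, 40105 and 483 bp from these members. The regions just outside lay 49998, 49990 and 49986 bp from a start and covered 429, 634 and 1588 bp. Members per Mb ranged from 0.529 on chromosome 19 to 2.82 on chromosome 20, and members were 1.40% of the regions found in all lists on chromosome 19 and 17.1% on chromosome 13.

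The widest members were stable in length. In RIN3, which codes for a Rab5 regulator, a member at chr14:92645499-92659950 covered 14024 bp with DMSO, 13619 with ATRA, 14109 with Corin and 13732 with ATRA+Corin. In ZMIZ1, a transcriptional coregulator, one at chr10:79241200-79251063 covered 9402, 9303, 9771 and 9177 bp, and in TMEM163 one at chr2:134467551-134477024 covered 8956, 7438, 8645 and 7862 bp. All 3 overlapped a start among the transcripts outside the basic set.

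Members gathered around some genes. Each was assigned to the nearest canonical protein-coding start; the assignment is by position and shows no contact. In all, 2096 genes were nearest to at least 1 member (10.5% of 19962 genes), 205 to at least 5 (1.03%) and 29 to at least 10, which held 366 members. The counts were 21 for KLF4, a zinc finger factor of monocyte differentiation, 20 for CXCR4, the chemokine receptor that holds blood cells in the marrow, and 20 for JARID2, a component of Polycomb complex PRC2. RHOU and MAML2 had 16 each, HS6ST1 15, NTRK3 14, INHBA 13 and CST7, a cystatin of leukocytes, 12. The starts of NTRK3 and INHBA carried no peak in any list, and those of the others named here carried one in every list. Over all genes nearest to a member, 65.6% had a marked start in every list, against 60.3% of all protein-coding genes.

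The 21 members nearest to KLF4 all lay outside genes, 58.0 to 666 kb from its start. Their median length was 844 bp with DMSO, 1278 with ATRA, 1487 with Corin and 1418 with ATRA+Corin, and 7, 9 and 12 of them were longer by 1.5 times or more with ATRA, Corin and ATRA+Corin, beside 24.0, 32.4 and 40.7% of all members. At chr9:107861953-107864145 the length was 403 bp with DMSO, 1800 with ATRA, 1047 with Corin and 2034 with ATRA+Corin. At chr9:107635606-107639964, the longest of them with DMSO, it was 3323, 3108, 3895 and 4343 bp. The JARID2 members had medians of 868, 1097, 1142 and 1419 bp, with 9, 9 and 11 of 20 longer. Of the INHBA members, 0 of 13 were longer with ATRA, 1 with Corin and 2 with ATRA+Corin; differences between genes were not tested.

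Chained within 50 kb, the members formed 2488 groups, of which 1472 were a single member and 152 held 5 or more (998 members). The largest lay inside MAML2 (chr11:96154938-96258996), with 16 members. Its peaks covered 17842 bp in sum with DMSO, 18394 with ATRA, 22838 with Corin and 25460 with ATRA+Corin. Members longer than with DMSO by any amount numbered 7, 11 and 13, beside 70.3, 75.6 and 82.6% of all members. The median ratios in the group were 0.944, 1.22 and 1.31, beside 1.15, 1.25 and 1.35 over all members. One member of the group, at chr11:96219755-96221600, covered 567 bp with DMSO, 348 with ATRA, 1845 with Corin and 1432 with ATRA+Corin. The summed length of the group thus rose little with ATRA, where 9 members were shorter than with DMSO. It rose more in both lists with Corin.

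The group nearest to CXCR4 showed another order. Its 13 members lay in 50.0 kb outside genes (chr2:136206335-136256376), 88.2 to 138 kb from the CXCR4 start. The sums were 13930 bp with DMSO, 18487 with ATRA, 15466 with Corin and 18348 with ATRA+Corin, so both lists with ATRA stood above Corin alone. At chr2:136225682-136227862 the length was 673 bp with DMSO, 1854 with ATRA, 1346 with Corin and 2180 with ATRA+Corin, and at chr2:136234745-136236998 it was 601, 2254, 686 and 706 bp. The second region was long with ATRA alone and not with the combination. In the group of 12 near CST7 (chr20:24771294-24881284), the sums were 17788, 18626, 20981 and 18760 bp. A group of 13 members had 2 nearest genes, GFPT1 (the first enzyme of hexosamine synthesis) among them, and summed to 12521, 14596, 13811 and 15086 bp. Of these 13, 5 lay outside genes, and the only protein-coding host was ANTXR1. The 12 members of a group inside HIVEP3 summed to 18496, 22333, 20725 and 27500 bp. The order of the lists thus differed between groups, and with 1 list per treatment these orders have no replicate check.

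**Figure D3:**
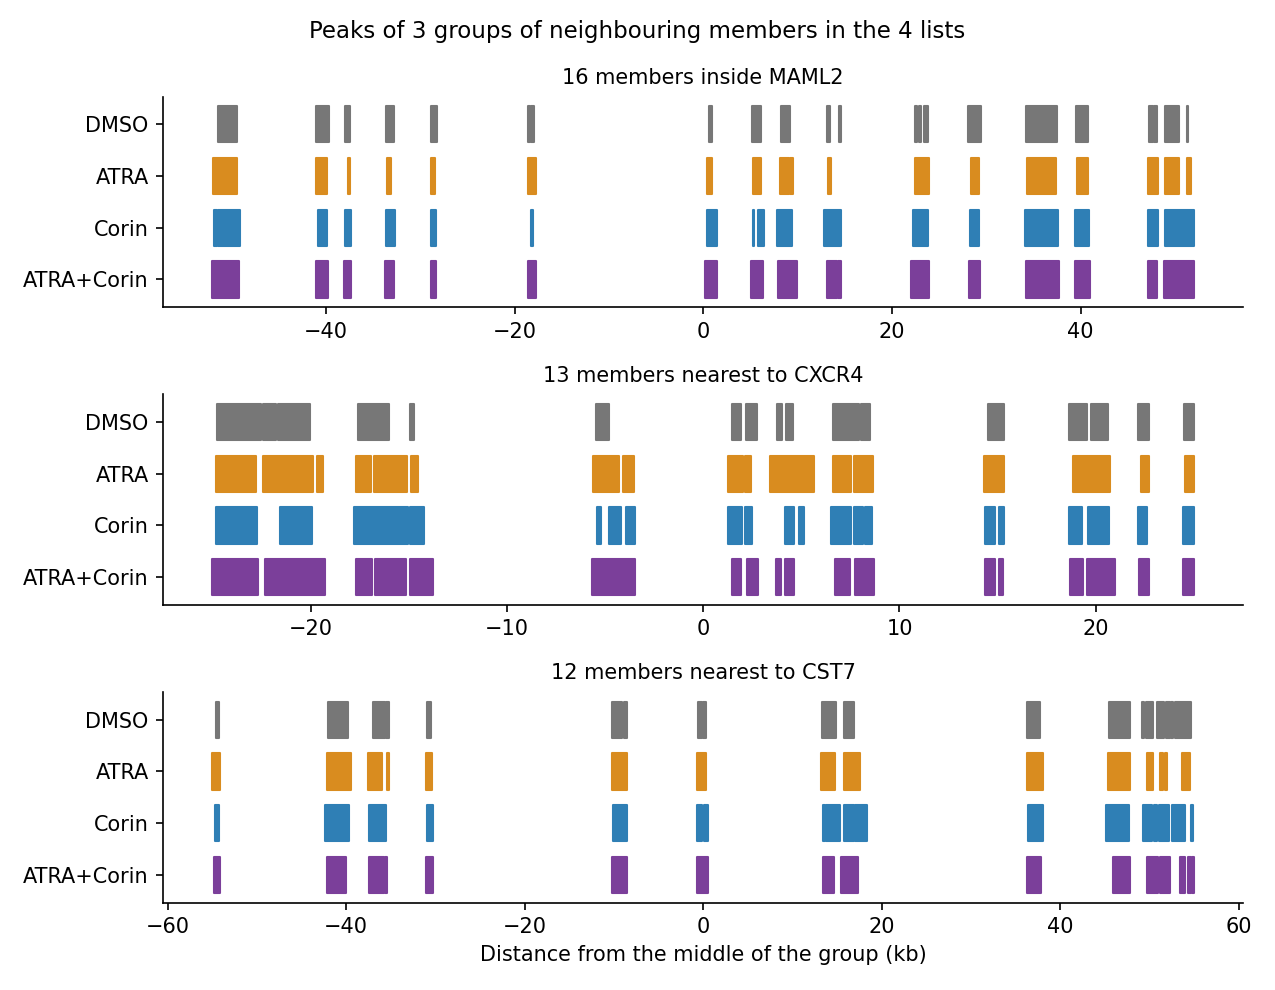
Peaks of the members in 3 groups, drawn as bars along the distance from the middle of each group (kb), with 1 row per list. The MAML2 group sums to 17842 bp with DMSO and 25460 bp with ATRA+Corin; the CXCR4 group is longest with ATRA (18487 bp) and the CST7 group with Corin (20981 bp).

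Of the 4 gene lists, myeloid transcription factors were most often the nearest gene. Of 43 myeloid factors listed, 24 (55.8%) were nearest to at least 1 member, beside 10.5% of all protein-coding genes, and 5 were nearest to at least 5 (11.6% beside 1.03%). Together they had 102 members, with median length ratios of 1.24 with ATRA, 1.30 with Corin and 1.41 with ATRA+Corin, beside 1.15, 1.25 and 1.35 over all members. Of the 102, 33 (32.4%), 34 (33.3%) and 43 (42.2%) were longer, beside 24.0, 32.4 and 40.7% of all members, so the shares with Corin and ATRA+Corin were near those of all members. Of 22 retinoid genes, 6 (27.3%) were nearest to a member (8 members). Of 10 genes for CoREST subunits and the acetyltransferases p300 and CBP, 1 was (RCOR1), and of 32 myeloid surface and effector genes 2 were (6.25%; CXCR4 and CD163), both near the share of all protein-coding genes. The list of factors was drawn up with earlier results of these data known, so these shares are no independent evidence.

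GFI1, a repressor that recruits LSD1 and CoREST, had 4 members, in the genes EVI5 and RPAP2. The one at chr1:92583226-92585536 covered 721 bp with DMSO, 2010 with ATRA, 1963 with Corin and 2091 with ATRA+Corin. The one at chr1:92542629-92544500 covered 685, 1516, 1254 and 1872 bp. Both were longer than DMSO in every drug list. The one at chr1:92540607-92542610 covered 744, 575, 1896 and 1575 bp and was longer only where Corin was given. Its −log10 q was 1.83, 3.30, 12.9 and 10.3 in the same order, so its DMSO and ATRA lengths come from weak peaks. The one at chr1:92397839-92400440 covered 1319, 2416, 1413 and 2584 bp and passed 1.5 times only where ATRA was given. RCOR1, which codes for the CoREST scaffold protein, had 1 member in its own intron (chr14:102643927-102646897), with 1130 bp in DMSO, 1992 in ATRA, 2424 in Corin and 2971 in ATRA+Corin.

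The RUNX1 and other factor members varied. RUNX1, a core factor of blood cell formation, had 12 members, all within the gene, and 4, 4 and 6 of them were longer, beside 24.0, 32.4 and 40.7% of all members. At chr21:34994447-34995838 the length was 388 bp with DMSO, 1233 with ATRA, 456 with Corin and 1167 with ATRA+Corin. At chr21:35474833-35476762 it was 775, 1273, 1804 and 1710 bp. The first of these was long where ATRA was given, and the second in every drug list. The member near MYB, a factor of immature blood cells, hardly varied, with 1637, 1775, 1777 and 1844 bp (chr6:135128112-135130131), and neither did the KLF6 member, with 1507, 1500, 1485 and 1461 bp (chr10:4130140-4131709). The BACH2 member covered 870, 1699, 1174 and 1976 bp (chr6:90146462-90148437), and the ID2 member 300, 683, 788 and 1238 bp (chr2:8058034-8059506). At CD163, a scavenger receptor of monocytes and macrophages, 1 member covered 923, 1637, 1984 and 1527 bp (chr12:7555293-7557312).

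Among retinoid genes, the members near the receptor RXRA and near enzymes were few. The RXRA member (chr9:134442916-134444956) covered 1300 bp with DMSO, 1391 with ATRA, 1652 with Corin and 2041 with ATRA+Corin. Near the CYP26 enzymes, which degrade retinoic acid, the CYP26C1 member (chr10:92990504-92991572, inside EXOC6) covered 363 bp with DMSO, 1006 with ATRA and 1031 with Corin, with the combination between DMSO and ATRA, and the CYP26A1 member (chr10:93197937-93199931) 1427, 1775, 1715 and 1842 bp. CYP26B1 had 3 members. The one at chr2:72241261-72242585 covered 429, 815, 851 and 1325 bp, and the one at chr2:71934141-71935803 covered 1437, 1637, 821 and 817 bp. The DMSO peaks of the CYP26C1 member and of the CYP26B1 member at chr2:72241261-72242585 were weak, with −log10 q of 2.01 and 1.83. The member near ALDH1A3, an enzyme that makes retinoic acid, covered 802, 1122, 1137 and 1401 bp, and that near DHRS9, a retinol dehydrogenase, 882, 1060, 846 and 800 bp. Of these 8 members, 2 were longer by 1.5 times or more with ATRA, 2 with Corin and 4 with ATRA+Corin, and 1 was shorter with Corin and with ATRA+Corin. With 8 members these shares are near the 24.0, 32.4 and 40.7% of all members.

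**Figure D4:**
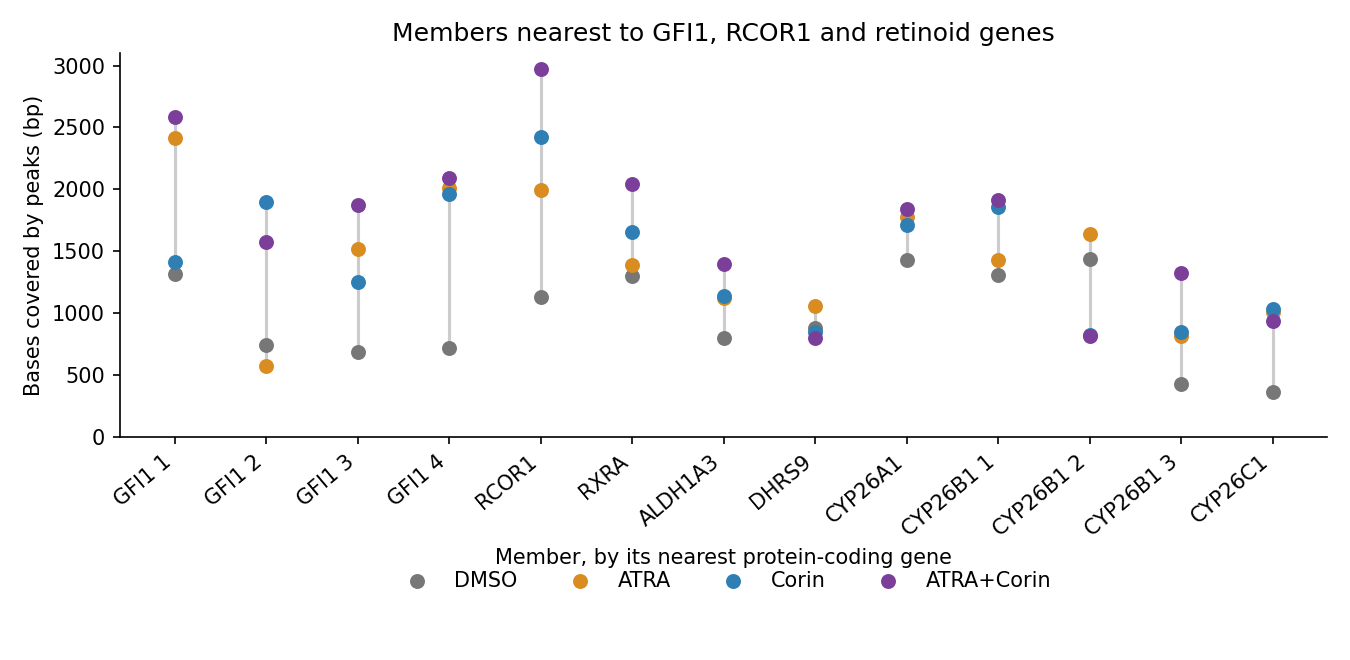
Bases covered by peaks (bp) in the 4 lists for the 13 members nearest to GFI1, RCOR1 and 6 retinoid genes; each point is 1 list, and members of 1 gene are numbered along the chromosome. DMSO is the lowest point in 10 of the 13, beside 54.9% of all members, and the RCOR1 member spans 1130 to 2971 bp. Some DMSO lengths come from weak peaks, with −log10 q as low as 1.83.

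The summits of members were poorer in GC than those nearer to start sites. The median GC content of the 300-base windows was 48.3%, against 50.7% at 10 to 50 kb, 52.0% at 1 to 10 kb and 61.3% up to 1 kb. The ratio of observed to expected CpG was 0.208 in members and 0.610 up to 1 kb. Motifs were searched on both strands as exact letters: C/EBP as TTNNGNAAT, AP-1 as TGANTCA, IRF as GAAANNGAA, RUNX as TGTGGTT, PU.1 as GAGGAAGT, GATA as AGATAAG, GFI1 as AATCANNGC, CTCF as CAGGGGGC and SP/KLF as GGGCGG. Retinoid repeats were 2 half-sites in the same direction, 1, 2 or 5 bases apart, where a half-site was the consensus AGGTCA or one of its variants, with AGTTCA as one, GGGTCA as another and GGTTCA as the last. A match is a description of letters and no binding site, and motifs can overlap.

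C/EBP letters were more frequent in members than in each nearer class. They were in 862 member windows (18.5%, 17.4 to 19.6), against 14.6% (14.0 to 15.2) at 10 to 50 kb, 12.7% at 1 to 10 kb and 7.22% up to 1 kb. Within bins of GC content the difference from the 10 to 50 kb class was smaller or gone. The shares in members and at 10 to 50 kb were 33.7 and 32.2% for windows of 30 to 40% GC, 22.8 and 19.8% for 40 to 50%, 9.82 and 9.69% for 50 to 60%, and 4.12 and 4.33% for 60 to 70%. AP-1 was in 10.8% of member windows, IRF in 10.5%, RUNX in 7.46%, PU.1 in 3.97%, GATA in 3.73% and GFI1 in 3.60%. At 10 to 50 kb these were 10.97, 9.995, 7.27, 3.82, 2.95 and 3.09%. SP/KLF letters fell the other way, 8.99% in members, 11.4% at 10 to 50 kb and 44.03% up to 1 kb. CTCF letters were in 2.21, 2.69 and 4.46%. Within the bins of GC content, SP/KLF letters stayed less frequent in members than up to 1 kb, and CTCF letters did not. The CTCF shares in members and up to 1 kb were 0.348 and 0.249% for 30 to 40% GC and 1.29 and 0.871% for 40 to 50%. For 50 to 60% they were 2.64 and 2.40%, and for 60 to 70% 9.28 and 6.20%. A retinoid repeat was found in 65 member windows (1.39%, 1.10 to 1.77), against 1.805% at 10 to 50 kb.

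**Figure D5:**
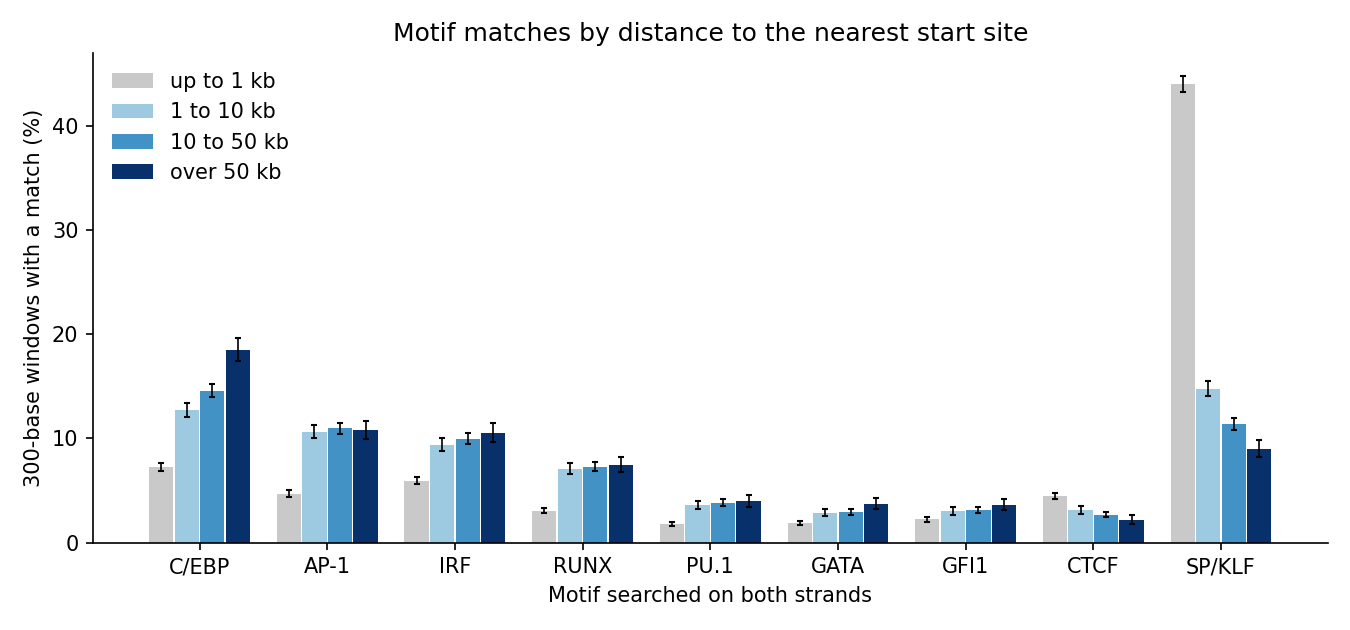
Percent of 300-base summit windows with at least 1 match to each motif, by distance to the nearest start site; error bars are 95% Wilson intervals (counting error). C/EBP letters are most frequent in members (18.5%), and SP/KLF letters up to 1 kb (44.03%).

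Members with different letters had somewhat different length ratios. With C/EBP letters the median ratio with ATRA+Corin was 1.47 (862 members), without them 1.33. With AP-1 letters the Corin ratio was 1.37 (503 members), without them 1.24, whereas with ATRA both were close (1.16 and 1.15). With SP/KLF letters the ratios were 1.05, 1.12 and 1.17 for ATRA, Corin and ATRA+Corin (419 members), and without them 1.16, 1.27 and 1.38. With CTCF letters the ATRA+Corin ratio was 1.21 (103 members), without them 1.36. For the 65 members with a retinoid repeat the ATRA ratio was 1.16, beside 1.15 for the rest. The DMSO lengths differed too, 768.5 bp with C/EBP letters and 957 bp with SP/KLF letters, and the part of length in these ratios was not tested.

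A small set of members had CpG-rich summits like those of promoters. Windows with at least 55% GC and an observed to expected CpG ratio of at least 0.6 made up 115 members (2.47%, 2.06 to 2.95), against 3.72% of regions at 10 to 50 kb and 44.98% up to 1 kb. These 115 covered a median of 1103 bp with DMSO, 1166 with ATRA, 1200 with Corin and 1235 with ATRA+Corin, and their median ratios were 1.04, 1.05 and 1.09. The other 4548 members had ratios of 1.16, 1.26 and 1.37. With ATRA+Corin, 11 of the 115 were longer by 1.5 times or more (9.57%), against 1887 of the others (41.5%). Their strongest peaks stood at a median rank of 78.7 in the DMSO list, against 38.9 for the others. Of the 115, 67 (58.3%) still had no start within 50 kb with every annotated transcript counted, against 2828 (62.2%) of the others. The RUNX3 window printed above is one of them.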

How the data were processed

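Chromatin immunoprecipitation with sequencing measured H3K4me2 in U-937 cells. Per the labels, libraries were sequenced paired-end. Per the submitters' processing notes, Trimmomatic, Bowtie2, Picard and MACS2 were used with build hg38; their versions, roles and thresholds are not given in the sources used here. The values are 4 deposited narrowPeak lists, 1 per treatment, called on pooled libraries against input. Each peak carries the authors' score, fold enrichment over input (a ratio), −log10 p and −log10 q as deposited; the score was not analysed. The fold and −log10 values were used to describe and rank peaks within a list, and to solve for the background of each list (within 0.001 of the deposited −log10 p), which succeeded for 97.6 to 99.99% of peaks.

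Overlapping or touching peaks were merged, and distances ran from region edges to start sites of protein-coding and lncRNA genes, from their basic transcripts (GENCODE release 44, GRCh38). In each list 0 peaks ended past a GRCh38 chromosome. Positions count from 1. Length is the number of bases covered by a list's peaks within a region. Windows of 300 bases were centred on the strongest DMSO summit; the genome copy carries no repeat marking, so repeats were not examined. Shares have 95% Wilson intervals (statsmodels 0.14.6, pandas 2.3.3). No test across treatments was possible with 1 pooled list each. Steps were checked on simulated peaks.

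Named members were the 8 with the highest value of their lowest rank percentile over the 4 lists, the farthest, the widest, and those beside the 50 kb limit. Also named were those with the largest and smallest ratios among members with −log10 q of at least 5 in every list. Named genes were the 10 nearest to the most members, those of the 5 largest groups, and members of 4 gene lists; single regions in these sets that are described were picked after their values were seen. The members and lists were chosen with earlier results of these data known, and the CpG-rich set was defined after the windows were seen. Regions on chromosome 8 are counted and not described singly. A few items that these rules select are not reported here. Of the listed genes, 1 (IL8) had no match by that symbol.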

Additional observations from a re-analysis of the deposited data

How the results depend on the processing

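No length ratio turned direction under any alternative run. Of the 56 alternative values for the main measures, 25 stayed within 1.5 times the count or within the interval of the reported value. The other 31 moved. No paired analysis was possible because each treatment has 1 pooled peak list without replicate values. The 4663 members became 9962 with no start within 25 kb, 1470 with 100 kb, 10094 with protein-coding starts only, 2895 with all annotated transcripts, and 2795 where each list's peaks had to cover the greater part of the region. Median ratios to DMSO for ATRA, Corin and ATRA+Corin were 1.18, 1.30 and 1.47 for the longest single peak, 1.10, 1.2 and 1.29 for the span of the peaks, and, in an alternative chosen after seeing the data, 1.13, 1.21 and 1.31 with protein-coding starts only; with peaks within 1 kb merged they were 1.28 for Corin and 1.40 for ATRA+Corin. The percent longer was 31.2, 37.7 and 48.5 for the longest single peak, 21.4, 29.6 and 36.0 for the span, 44.7, 54.6 and 63.4 at 1.2 times and 11.2, 16.9 and 22.5 at 2 times. Counting protein-coding gene bodies only put 50.5% of members in a gene. The GC median was 44.7% at the middle of the region and 45.5% over 600 bases. The cause of these shifts was not tested beyond the change in definition. Each list is 1 set of calls, so the spread between replicates is not known, and a weaker peak has fewer fragments behind its edges: member summits held a median of 36 fragments with DMSO, 46 with ATRA, 42 with Corin and 60 with ATRA+Corin.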
